A study of Mus musculus with 23 samples.

Results

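The 10 genes described here are Ccn1, Ccn2, Ankrd1, Amotl1, Amotl2, Lats2, Ajuba, Dock5, Axl and Gadd45a, a set of YAP and TEAD target genes taken by name from 35523 genes measured by RNA-seq in mouse pancreatic stellate cells and tumour organoids grown together. All 10 were found in the deposited tables, and all 10 passed the filter on low counts in every comparison. Pancreatic stellate cells (PSCs) are the resident mesenchymal cells of the pancreas that turn into fibroblasts around a tumour. Organoids are tumour epithelial cells grown as small structures in a gel. Both were grown together for 3.5 days in Matrigel, a gel of basement membrane proteins, in a medium that the labels call reduced or control, and were then sorted into a PSC fraction and an organoid fraction.

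The PSCs were Egfr knockout (KO) or wild type (WT, titled Rosa). Parent line PSC4 gave the KO lines A3 and B4, and parent line PSC5 gave the KO lines C5 and D4. The labels give only these codes, and each is called a clone here and counted as 1 line. The organoid lines were T6-LOH, T12-LOH and T69A, and no organoid is labelled as edited. PSC4 was grown with all 3 organoid lines and PSC5 with T6-LOH only, which makes 4 co-cultures. Each co-culture had 1 WT library and a library for each KO clone in each fraction, except that the organoids of T69A with clone A3 were not analysed here. This gave 4 WT and 8 KO libraries of PSCs, 4 libraries of organoids grown with WT PSCs and 7 of organoids grown with KO PSCs, 23 in all. The sources used here do not give animal age or strain, the way Egfr was disrupted or whether libraries came from separate cultures. P-values therefore measure only the spread between these libraries. No pair of libraries within a fraction shared both PSC line and organoid line. Differences between lines and technical spread thus cannot be told apart.

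YAP and its relative TAZ are coactivators that enter the nucleus when the kinases of the Hippo pathway are inactive, as on stiff matrix or at low cell density. There they bind TEAD proteins, which recognise a short DNA element, and raise the transcription of genes for matrix signals, the cytoskeleton and growth. Several targets feed back on the pathway, since the angiomotins and LATS2 hold YAP in the cytoplasm. In the pancreas YAP is known for its part in the activation of stellate cells and in the growth of ductal tumours.

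The TEAD element was searched as CATTCC and its reverse complement GGAATG in RefSeq promoters of build GRCm38.p6, from 250 bases before to 50 after each start site. The promoter table held 8 of the 10 genes and not Ccn2 or Dock5. It held the element in 6 of those 8, namely Ccn1, Ankrd1, Amotl2, Ajuba, Lats2 and Axl, and in 14.66% of all 32851 promoters of the same length. Ankrd1 and Ajuba had 2 copies each, as 1.361% of all promoters had 2 or more. In Lats2 only 1 of 2 listed promoters held it, 4 bases after the start site, and in Axl it lay 233 bases before. The AP-1 element TGANTCA, read on both strands because it is its own reverse complement, was in 0 of the 8 and in 7.808% of all promoters. The 6 stretches below are the 250 bases before the start site, 5′ to 3′ along the gene, with TEAD elements in capitals. The first 4 hold the element, in Ccn1 103 bases, in Ankrd1 210 and 123, in Amotl2 65 and in Ajuba 186 and 164 bases before the start. Those of Amotl1 and Gadd45a are shown because both genes were lower in organoids grown with KO PSCs, without these letters in the window. A match is a description of the letters only and no measure of binding.
Ccn1 (chr3:145649986-145650235, minus strand): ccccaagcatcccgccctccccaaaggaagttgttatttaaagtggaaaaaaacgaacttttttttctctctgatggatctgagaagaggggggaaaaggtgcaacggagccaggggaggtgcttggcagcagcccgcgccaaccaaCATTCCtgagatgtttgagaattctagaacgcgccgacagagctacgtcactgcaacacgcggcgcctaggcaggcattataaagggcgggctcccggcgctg
Ankrd1 (chr19:36119845-36120094, minus strand): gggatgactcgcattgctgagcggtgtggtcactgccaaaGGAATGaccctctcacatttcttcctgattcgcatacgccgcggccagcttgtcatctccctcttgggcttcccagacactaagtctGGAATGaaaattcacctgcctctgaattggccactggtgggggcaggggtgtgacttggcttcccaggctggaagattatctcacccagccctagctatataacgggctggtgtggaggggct
Amotl2 (chr9:102717554-102717803, plus strand): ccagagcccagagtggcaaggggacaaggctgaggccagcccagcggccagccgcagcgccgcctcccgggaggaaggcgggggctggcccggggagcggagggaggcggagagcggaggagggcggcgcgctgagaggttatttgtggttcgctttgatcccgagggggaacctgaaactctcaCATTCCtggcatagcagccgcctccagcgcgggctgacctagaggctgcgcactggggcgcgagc
Ajuba (chr14:54577662-54577911, minus strand): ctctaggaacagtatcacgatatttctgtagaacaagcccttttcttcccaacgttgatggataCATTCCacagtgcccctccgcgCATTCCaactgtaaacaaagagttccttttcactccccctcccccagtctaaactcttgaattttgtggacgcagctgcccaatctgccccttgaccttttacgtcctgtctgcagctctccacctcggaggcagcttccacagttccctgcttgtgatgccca
Amotl1 (chr9:14615001-14615250, minus strand): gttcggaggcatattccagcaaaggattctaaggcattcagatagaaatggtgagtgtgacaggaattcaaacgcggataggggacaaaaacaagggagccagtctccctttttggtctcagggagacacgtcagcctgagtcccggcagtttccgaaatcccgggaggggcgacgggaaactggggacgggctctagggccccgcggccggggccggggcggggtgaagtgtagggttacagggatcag
Gadd45a (chr6:67037408-67037657, minus strand): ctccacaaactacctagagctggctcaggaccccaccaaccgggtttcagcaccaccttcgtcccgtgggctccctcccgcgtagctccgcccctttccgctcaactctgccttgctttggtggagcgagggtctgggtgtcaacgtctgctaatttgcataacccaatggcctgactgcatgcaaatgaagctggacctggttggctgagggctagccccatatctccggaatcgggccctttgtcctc

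Values below are in CPM (read counts scaled to library size) on a scale shared by all 23 libraries, unless TPM are named, which also correct for transcript length. Depth was 21823084 to 34828131 estimated counts per library, and mitochondrial genes took 1.96 to 4.96% of them, with the highest share in the T69A organoids grown with WT PSCs. The sorted fractions carried the markers of their label. Of 18 fibroblast markers the summed level was 9216 to 22455 CPM in PSCs and 2.4 to 32.7 CPM in organoids, and Pdgfrb stood at 203 to 414 and 0 to 0.317 CPM. Of 18 epithelial markers the sum was 38.7 to 193 CPM in PSCs and 16744 to 24491 CPM in organoids, and Epcam stood at 0.365 to 3.43 and 407 to 1132 CPM. Of 8 endothelial markers the sum was 5.02 to 12.4 CPM in WT PSCs, 5.28 to 55.4 in KO PSCs, 4.22 to 22.8 in organoids with WT PSCs and 2.14 to 18.0 in those with KO PSCs. Of 8 immune markers it was, in the same order, 36.3 to 66.2, 22.8 to 87.9, 73.7 to 117 and 57.9 to 98.99 CPM, with 3 genes at a mean of at least 1 CPM in each group, and Cd3e (T cells) had 0 counts in 3 of the 4 groups. Of 8 acinar and endocrine markers it was 9.70 to 17.9, 10.2 to 17.9, 1.54 to 7.52 and 1.54 to 5.65 CPM, with Ins1 and Ins2 (beta cells) and Cpa1 (acinar cells) at 0 in all 23 libraries. In PSCs of parent PSC4 the immune marker with the highest mean was Cd14, at 45.1 (WT), 47.0 (A3) and 33.9 (B4) CPM. Among acinar and endocrine markers it was Cela1, at 12.7, 11.5 and 15.3 CPM. Egfr, the targeted gene, stood at 278, 419, 279.8 and 322 CPM in WT PSCs, for PSC4 with T6-LOH, PSC5 with T6-LOH, PSC4 with T12-LOH and PSC4 with T69A. In KO PSCs it was lower than its co-culture's WT library in 8 of 8 libraries, at 20.7 to 82.1% of it. The highest share was in clone D4, at 344 CPM. Its log2 change was -1.15 (SE 0.34, edgeR adjusted p = 0.225), and transcripts that remain say nothing about the protein.

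In length-corrected levels Ccn1 stood first in PSCs and Ccn2 in organoids. Ccn1 and Ccn2 encode secreted matricellular proteins, also called CYR61 and CTGF. Over the 12 PSC libraries the mean was 815 ± 292 TPM (SD) for Ccn1 and 357 ± 85.1 TPM for Axl, a receptor tyrosine kinase that binds GAS6. Their ranges, 434 to 1492 and 226 to 464 TPM, overlapped only at the edge. Ccn2 (133 ± 59.5), Gadd45a (119 ± 46.2), Ankrd1 (116 ± 45.9) and Amotl2 (110 ± 42.9 TPM) followed and did not differ beyond their spread. Amotl1 (44.1 ± 8.11), Lats2 (25.2 ± 3.77), Ajuba (17.4 ± 3.11) and Dock5 (7.57 ± 2.24 TPM) came last. Dock5 had 4.03 to 10.5 TPM, just meeting the lowest Ajuba library at 10.5 TPM. Over the 11 organoid libraries Ccn2 had 309 ± 56.1 TPM and Ccn1 207 ± 31.7 TPM, with ranges of 229 to 393 and 159 to 263 TPM that overlapped. Ankrd1 (128 ± 74.3 TPM) spread from 33.1 to 229 TPM, a range that took in those of Ajuba (66.3 ± 12.6) and Amotl2 (44.2 ± 5.96 TPM). Amotl1 (32.8 ± 8.12), Dock5 (26.9 ± 3.20) and Gadd45a (24.6 ± 10.9 TPM) overlapped each other. Axl (15.9 ± 11.6) and Lats2 (13.4 ± 4.55 TPM) were lowest.

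**Figure D1:**
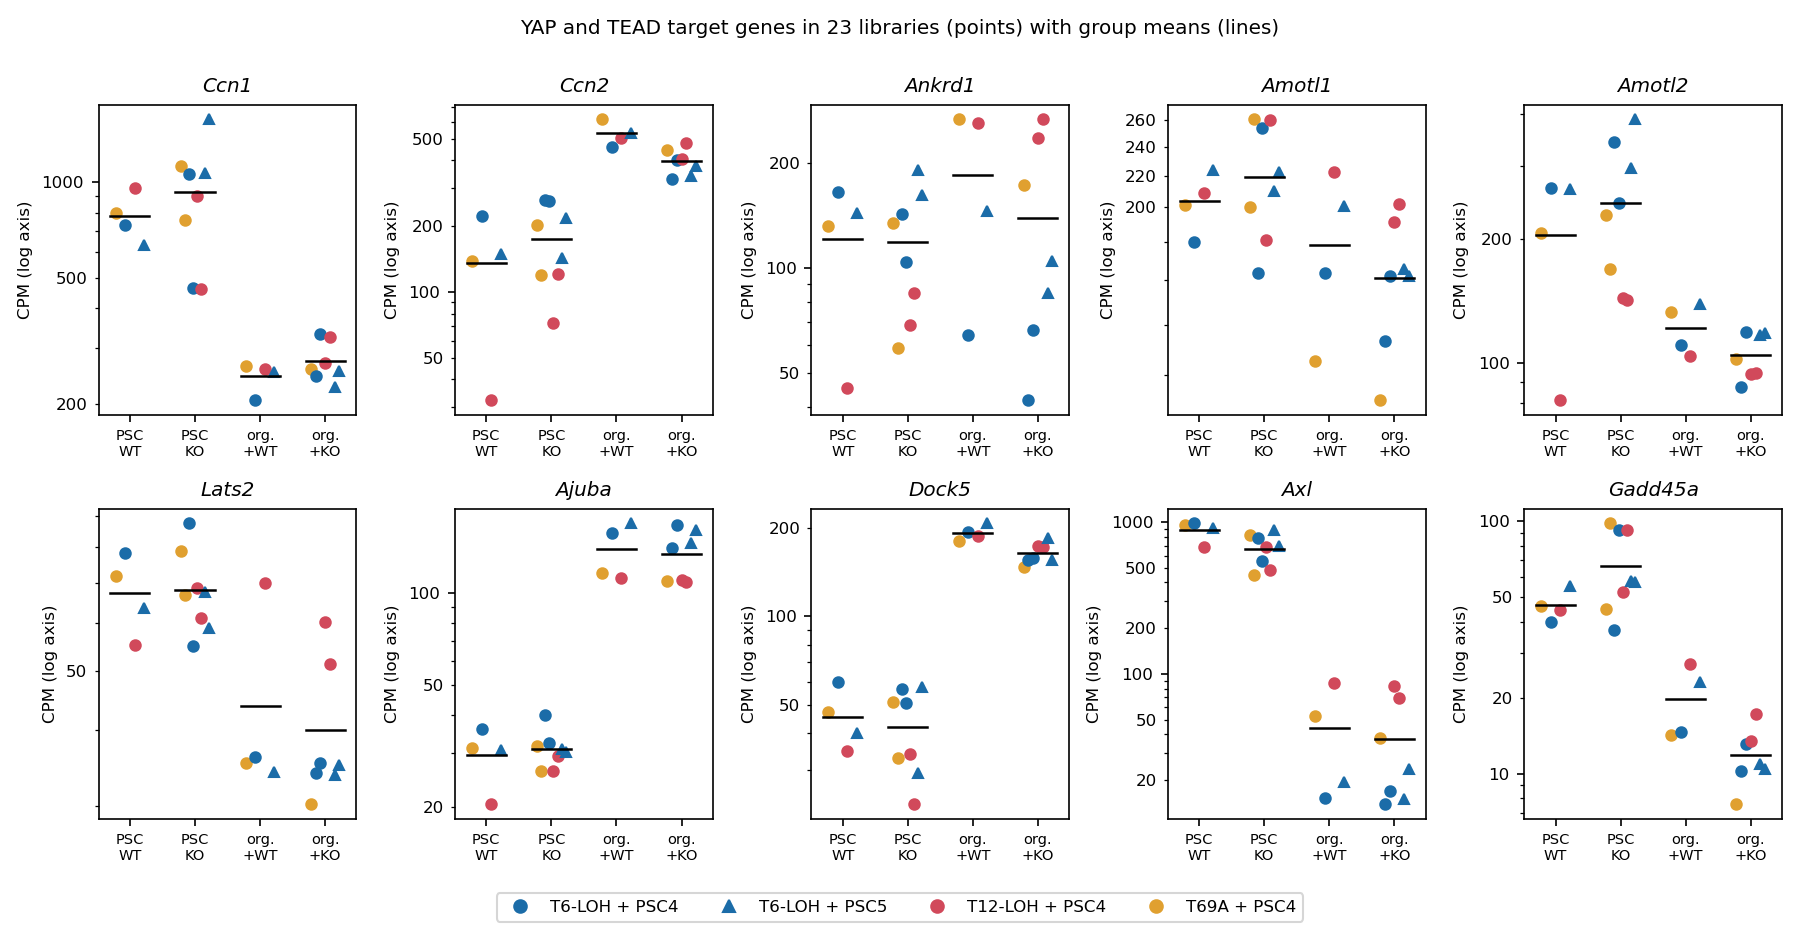
CPM of each gene on a log axis in the 23 libraries, by group (org. +WT and org. +KO are organoids grown with WT or KO PSCs), with colours for organoid line, shapes for PSC parent and a line at the group mean. Axl, Ccn1, Gadd45a, Ccn2, Ajuba and Dock5 separate the fractions without overlap, whereas Ankrd1, Amotl1, Amotl2 and Lats2 overlap. The share of all genes without overlap was not computed. Between the fractions of WT co-cultures 56% of 14416 genes were called.

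Between the fractions of WT co-cultures, 3 of the genes were higher in PSCs (Axl, Ccn1, Gadd45a) and 3 were higher in organoids (Ajuba, Ccn2, Dock5). This comparison used 4 PSC and 4 organoid libraries with co-culture as a block, and 56% of 14416 genes passed it (28.8% higher and 27.3% lower in PSCs), so 6 of 10 is near the share of all genes. In bulk libraries, fewer cells of a type and less RNA per cell cannot be told apart. In that same order of co-cultures, which all lists of 4 WT values below keep, Axl had 991, 909, 688 and 949 CPM in PSCs and 15.1, 19.5, 87.4 and 52.8 CPM in organoids. The lowest PSC library lay far above the highest organoid library. Its log2 difference was 4.69 (SE 0.62, edgeR adjusted p = 0.0018).

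Ccn1 had 730.0, 632, 958 and 797 CPM in WT PSCs and 205, 253, 258 and 263 CPM in their organoids. The fractions did not overlap, and the log2 difference was 1.66 (SE 0.15, edgeR adjusted p = 0.000381). Gadd45a, a stress-induced growth arrest gene, had 39.8, 55.4, 44.3 and 46.1 CPM in PSCs and 14.7, 23.0, 27.2 and 14.3 CPM in organoids, also without overlap. Its log2 difference was 1.27 (SE 0.20, edgeR adjusted p = 0.00292).

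Ccn2 ran the other way from Ccn1, although both encode proteins of one family. It had 223, 149.5, 32.1 and 138 CPM in PSCs and 463, 536, 508 and 621 CPM in organoids, so that every organoid library was above every PSC library. The log2 difference was -2.23 (SE 0.50, edgeR adjusted p = 0.0124). Ajuba encodes a LIM domain protein that binds LATS kinases, and it had 36.0, 30.8, 20.4 and 31.1 CPM in PSCs and 157, 169.9, 112 and 117 CPM in organoids. Dock5, an exchange factor for the GTPase RAC, had 59.6, 40.0, 34.9 and 47.3 CPM in PSCs and 194, 209, 188 and 181 CPM in organoids. Neither overlapped, and the log2 differences were -2.24 (SE 0.15) and -2.11 (SE 0.17), with edgeR adjusted p of 0.000164 and 0.000285.

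The other 4 did not pass in WT libraries. Amotl2 (log2 0.62, edgeR adjusted p = 0.111) and Lats2 (0.68, adjusted p = 0.0838) passed without either T12-LOH library, with adjusted p of 0.00752 and 0.00286 without the organoid and 0.00796 and 0.00278 without the PSC library. Leaving out either one removes that co-culture from this comparison, so these are nearly the same test. Amotl1 differed by 0.22 (adjusted p = 0.285). Ankrd1, an ankyrin repeat cofactor, differed by -0.55 (adjusted p = 0.51) and by 0.11 and 0.10 without the T12-LOH organoid or PSC library. With all 11 cultures that gave both fractions, Amotl2 (0.96), Lats2 (0.74) and Amotl1 (0.38) were also called higher in PSCs, where 75.3% of 14058 genes were called (37.3% higher, 38% lower), so that 9 of 10 members stood beside a higher share of all genes. Scaled by the median of fibroblast markers, PSC material gave at most 2.73% of a member's level in any organoid library (Axl). Scaled by the median of epithelial markers, organoid material gave at most 3.4% of a member's level in any PSC library (Dock5). Single markers gave higher shares than these medians, so neither value is an upper bound.

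Organoids grown with KO PSCs had less Gadd45a, Ccn2, Dock5 and Amotl1 than organoids of the same co-culture grown with WT PSCs. These 4 of 10 genes were called lower and 0 were called higher, where 10.3% of 13939 genes were called, 6.05% lower and 4.28% higher. Of the 10 fold changes 9 were negative, with a median of -0.21 on the log2 scale against -0.01 over all genes. The 10 genes were chosen with earlier results of these data known. Their counts and median beside those of all genes are therefore descriptions only. The 4 called genes were lower than their own control in 7 of 7 libraries, and these 7 libraries share 4 controls. The same libraries gave the calls, so this count is a description and no separate support. The share of all genes lower in 7 of 7 was not computed.

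Gadd45a had 14.7, 23.0, 27.2 and 14.3 CPM in organoids with WT PSCs. With KO PSCs it had 10.2 (A3) and 13.2 (B4) CPM in T6-LOH with PSC4, 11.0 (C5) and 10.5 (D4) in T6-LOH with PSC5, 13.4 (A3) and 17.3 (B4) in T12-LOH and 7.56 (B4) in T69A. The groups overlapped across co-cultures and not within them, and the smallest drop was in T6-LOH with clone B4, at 89.9% of its control. The log2 change was -0.80 (SE 0.12, edgeR adjusted p = 0.00644). The call held without any single library and was lost without the 3 libraries of T6-LOH with PSC5 (-0.67, adjusted p = 0.0603).

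Ccn2 had 463, 536, 508 and 621 CPM with WT PSCs. With KO PSCs in the same order of co-cultures and clones it had 329.7, 402, 341, 379, 405, 482 and 447 CPM. A single KO library, T12-LOH with B4, was above the lowest WT library. The log2 change was -0.40 (SE 0.08, edgeR adjusted p = 0.0156). Without the T69A libraries of WT or B4 or the WT library of T6-LOH with PSC5 the adjusted p was 0.0575, 0.0561 and 0.0878. T69A had no other organoid libraries here. Leaving out either one removes that co-culture from the KO comparison, so these are nearly the same test.

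Dock5 had 194, 209, 188 and 181 CPM with WT PSCs and 156, 158, 184, 155, 174, 172 and 148 CPM with KO PSCs. Only T6-LOH with C5, at 184 CPM, reached the range of the WT libraries. The log2 change was -0.26 (SE 0.05, edgeR adjusted p = 0.013), and without the same 3 libraries, in the same order, the adjusted p was 0.0548, 0.0536 and 0.0686. Amotl1, an angiomotin that binds YAP, had 164, 201, 223 and 125 CPM with WT PSCs and 133, 162, 166, 162, 191, 202 and 111 CPM with KO PSCs. Its groups overlapped widely across co-cultures. Its log2 change was -0.21 (SE 0.05, edgeR adjusted p = 0.0348), and the call was lost on leaving out any of 8 of the 11 libraries (T6-LOH WT of PSC4 and its B4, and T12-LOH with B4, are the exceptions), with adjusted p of 0.0587 to 0.162. Leaving out either T69A library is again nearly the same omission. Without co-culture in the model none of the 4 was called, with an edgeR adjusted p of 1 for each.

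The remaining 6 were not called. Amotl2, the second angiomotin, changed by -0.21 (SE 0.07, edgeR adjusted p = 0.0853) and Ankrd1 by -0.38 (SE 0.15, adjusted p = 0.155). Both passed without the library of T6-LOH with B4, at adjusted p of 0.00742 and 0.0392. Lats2 (-0.15, adjusted p = 0.142), Ajuba (-0.08, adjusted p = 0.334) and Axl (-0.16, adjusted p = 0.455) had smaller values. Ccn1 was the single member with a positive value (0.15, adjusted p = 0.446), above its control in 5 of 7 libraries.

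Among 13 measured further YAP and TEAD targets, 1 was called lower and 0 higher, namely Nt5e, an ectonucleotidase (-1.64, SE 0.42, edgeR adjusted p = 0.0472). The median of these 13 was -0.08. This list and those that follow were chosen with earlier results of these data known, so their counts are descriptions only. Of 27 measured genes of the Hippo pathway and its partners 1 was lower, Tead1 (-0.45, SE 0.12, adjusted p = 0.0493), a DNA-binding partner of YAP. Of 13 TGF-beta targets 6 were lower and 0 higher, with a median of -0.38, among them the integrin gene Itgb6 (-0.44, edgeR adjusted p = 0.00473). Of 16 immediate-early genes 3 were higher and 3 lower. Residual PSC material differed in the same direction. Of 7 measured fibroblast markers 4 were called lower. By the median of fibroblast markers, PSC material made up 0.024 to 0.142% of organoid libraries with WT PSCs and 0 to 0.0532% of those with KO PSCs. Single markers reached 0.626% in a library with WT PSCs and 0.485% in one with KO PSCs. By the median, which is no upper bound, PSC material gave at most 0.626% of the level of Gadd45a, 0.249% of Amotl1, 0.0351% of Ccn2 and 0.0343% of Dock5 in any organoid library. Of Nt5e its share was not computed, so its part in that gene was not tested.

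**Figure D2:**
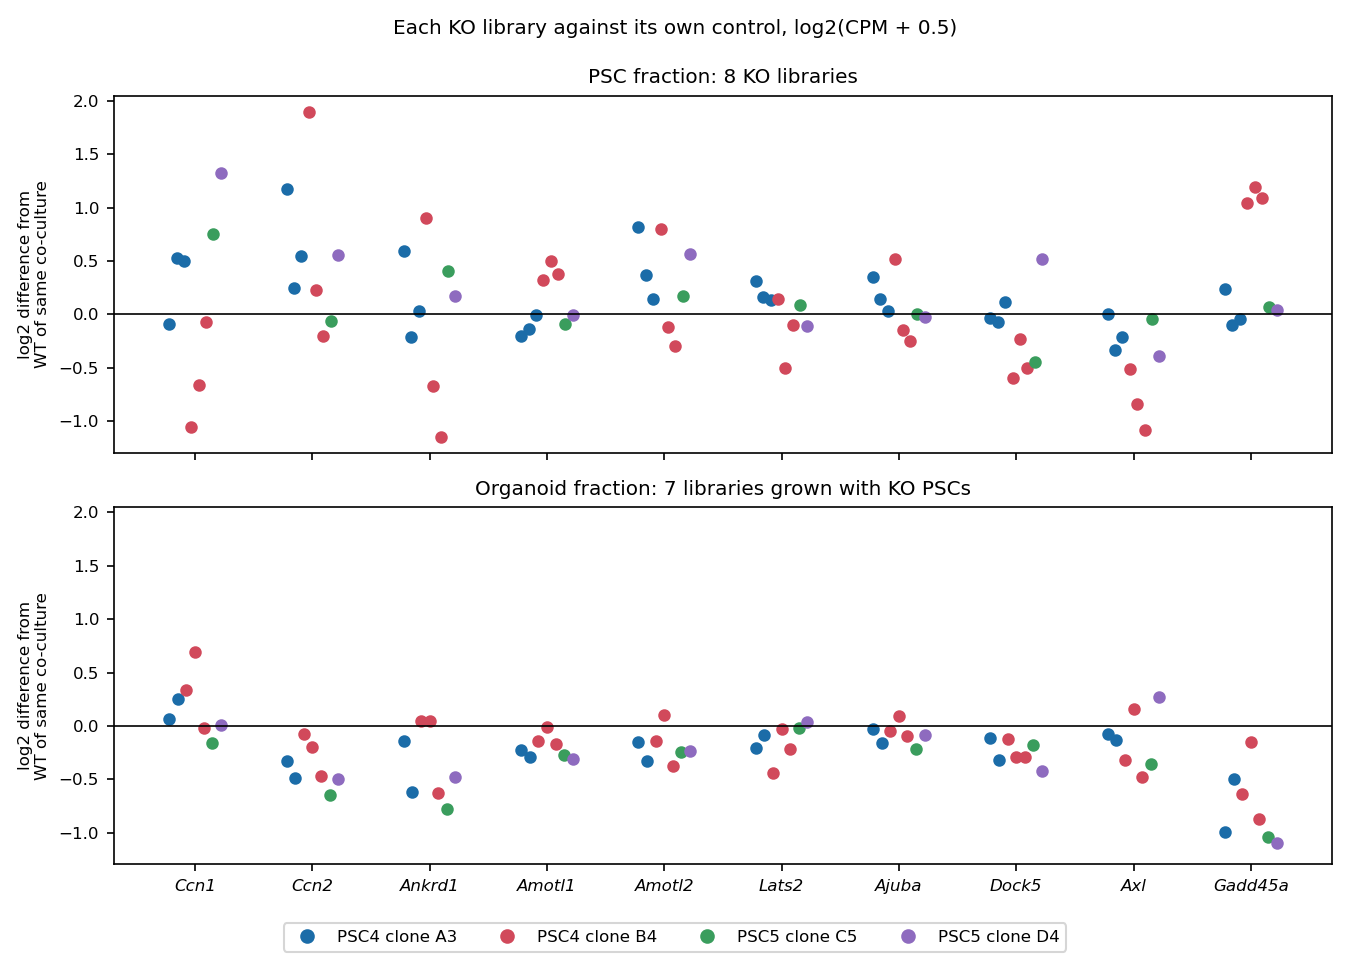
Log2 difference of each KO library from the WT library of its co-culture, log2(CPM + 0.5), by gene, in PSCs (top) and organoids (bottom), coloured by KO clone. In organoids Ccn2, Amotl1, Dock5 and Gadd45a lie below 0 in 7 of 7 libraries, which also entered the test that called them. In PSCs the clones lie on both sides of 0 for most genes.

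In the PSCs themselves none of the 10 genes was called between KO and WT, where 0.0638% of 14107 genes (9) passed by edgeR, 0.0213% higher and 0.0425% lower. At an unadjusted p under 0.05 edgeR gave 1937 genes, and DESeq2 called 602 after adjustment, 0 of them members. Axl came closest, with 788 (A3), 552 (B4), 884 (C5), 695 (D4), 690.0 (A3) and 480.5 (B4), 819 (A3) and 447 (B4) CPM in KO PSCs, in the same order of co-cultures, against 991, 909, 688 and 949 CPM in WT PSCs. It lay below its control in 7 of 8 libraries, with a log2 change of -0.41 (SE 0.19, edgeR adjusted p = 0.385). Ccn2 had 264, 261, 143, 219, 72.8, 121, 203 and 120.1 CPM in KO PSCs and lay above its control in 6 of 8, with a log2 change of 0.53 (SE 0.26, adjusted p = 0.41). Gadd45a changed by 0.50 (SE 0.28, adjusted p = 0.464) and Amotl2 by 0.30 (SE 0.16, adjusted p = 0.453). The other 6 lay between -0.13 (Dock5) and 0.17 (Ccn1), with adjusted p of 0.757 to 0.988.

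Whether the KO change differed between the fractions was tested in 1 model over all 23 libraries. It had co-culture terms within each fraction and none for the single culture. PSC and organoid libraries of the same culture were thus treated as independent. None of the 10 genes passed, where 0.539% of 15573 genes did (0.315% with a higher change in PSCs, 0.225% lower). The difference, PSC change minus organoid change, was 1.31 for Gadd45a (SE 0.35, edgeR adjusted p = 0.0994) and 0.92 for Ccn2 (SE 0.30, adjusted p = 0.16). At an unadjusted p under 0.05 edgeR gave 2459 genes. DESeq2 called 614 genes and both of these members, at adjusted p of 0.0105 and 0.0419.

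The KO clones of PSC4 differed from each other in some members, and other members varied more with the organoid partner. With T6-LOH, T12-LOH and T69A in that order, the log2 difference of Ccn2 from the WT library was 0.24, 1.17 and 0.55 in A3 and 0.23, 1.898 and -0.20 in B4. That of Amotl2 was 0.37, 0.82 and 0.14 in A3 and -0.12, 0.80 and -0.30 in B4. Both differences, not the levels, were highest with T12-LOH in either clone. The WT library was lowest there, at 32.1 CPM for Ccn2 and 81.2 CPM for Amotl2, and it entered each of these differences. Over the 3 partners, clone B4 had more Gadd45a and Amotl1 and less Axl, Ccn1 and Dock5 than WT, and clone A3 had 0 of 10 genes called. For B4 50.2% of 14093 genes were called (25.2% higher, 25% lower), so 5 of 10 was the share of all genes. For A3 7.41% were called (3.35% higher, 4.06% lower), and before adjustment 3297 genes had a p under 0.05. Each line here is 1 clone grown with T6-LOH, T12-LOH and T69A, and the A3 and B4 comparisons share the WT libraries.

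Gadd45a had 39.8, 44.3 and 46.1 CPM in WT, 37.0, 52.3 and 44.7 in A3 and 91.8, 91.9 and 98.6 in B4, with T6-LOH, T12-LOH and T69A in that order. B4 stood apart from both. It exceeded A3 by 1.06 on the log2 scale (SE 0.09, edgeR adjusted p = 0.00011) and WT by 1.10 (SE 0.09, adjusted p = 9.22e-05). Axl had 991, 688 and 949 CPM in WT, 788, 690.0 and 819 in A3 and 552, 480.5 and 447 in B4. The B4 libraries were lowest with each partner, by -0.65 from A3 (SE 0.11, edgeR adjusted p = 0.00176) and -0.83 from WT (SE 0.11, adjusted p = 0.000519).

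Amotl1 had 179.8, 209 and 201 CPM in WT, 163, 181 and 200.1 in A3 and 254, 260.3 and 261 in B4. B4 was above both without overlap, by 0.49 from A3 (SE 0.07, edgeR adjusted p = 0.000723) and 0.38 from WT (SE 0.07, adjusted p = 0.00224). Ccn1 had 730.0, 958 and 797 CPM in WT, 1055, 899.7 and 1125 in A3 and 463, 461 and 759 in B4. B4 was below A3 with each partner, by -0.92 (SE 0.19, edgeR adjusted p = 0.00753), and the difference from WT was -0.62 (SE 0.19, adjusted p = 0.0341). The call against WT was lost without the WT library of T6-LOH (0.0675) or T12-LOH (0.0602), the B4 library of T6-LOH (0.131) or T12-LOH (0.131) or the A3 library of T69A (0.053), and with no filter on low counts (0.0607).

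Dock5 had 59.6, 34.9 and 47.3 CPM in WT, 56.5, 34.2 and 51.2 in A3 and 50.7, 22.9 and 33.1 in B4. The lines overlapped across partners and B4 was lowest with each. It differed by -0.47 from A3 (SE 0.10, edgeR adjusted p = 0.00556) and -0.46 from WT (SE 0.10, adjusted p = 0.00563). Lats2 differed between B4 and A3 (-0.38, SE 0.12, edgeR adjusted p = 0.0294) and was not called between B4 and WT (-0.17, adjusted p = 0.261). Its call was lost without the A3 library of T6-LOH (0.115), T12-LOH (0.0716) or T69A (0.0545) or the B4 library of T69A (0.0657). Thus 6 of 10 members differed between B4 and A3, where 49% of all genes did (24.4% higher and 24.6% lower in B4). Ccn2 was not called between the clones (0.03, SE 0.40, adjusted p = 0.959). Egfr itself was higher in B4 than in A3, by 1.02 (SE 0.17, edgeR adjusted p = 0.00286). Of the 14 SRF and MRTF cytoskeletal targets, a list chosen with earlier results of these data known, 10 were higher and 2 lower in B4 than in WT. Among them Cnn1, calponin, was higher by 2.35 (SE 0.19, edgeR adjusted p = 8.79e-05). Endothelial markers differed between these lines as well, with 3 of 5 measured ones higher in B4 than in WT (median 1.67) and 4 of 5 higher than in A3 (median 1.39), and 0 lower. The sum of all 8 was 5.02 to 12.4 CPM in WT, 5.44 to 14.2 in A3 and 15.4 to 55.4 in B4, of which Flt1, a VEGF receptor, made up most. Of the 8, Tie1 was at 0 in WT and none was at 0 in A3 or B4. The part of these markers in the differences of B4 was not tested.

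The organoid partner went with larger differences in the PSCs than the knockout did for Ccn2 and Amotl2, a contrast that was not tested. PSC4 lines grown with T12-LOH had less Ccn2, Amotl2, Dock5 and Ajuba than the same lines grown with T6-LOH. These 4 of 10 were called lower and 0 higher, where 17.8% of 14093 genes were called, 9.25% lower and 8.53% higher. The median of the 10 was -0.38 on the log2 scale against 0.01 over all genes. As the 10 genes were chosen with earlier results of these data known, these values are descriptions only. Each of the 4 was lower with T12-LOH in 3 of 3 PSC4 lines. The same libraries gave the calls, so this count is a description and no separate support. The share of all genes lower in 3 of 3 lines was not computed.

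Ccn2 had 223 (WT), 264 (A3) and 261 (B4) CPM in PSCs grown with T6-LOH, 32.1, 72.8 and 121 with T12-LOH and 138, 203 and 120.1 with T69A. The T12-LOH and T6-LOH libraries did not overlap, and the WT line was lowest with T12-LOH. The log2 difference between T12-LOH and T6-LOH was -1.81 (SE 0.42, edgeR adjusted p = 0.0388). Amotl2 had 265, 341 and 243 CPM with T6-LOH, 81.2, 144 and 142 with T12-LOH and 207, 229 and 168 with T69A. Its T12-LOH libraries were the 3 lowest of the 9. The log2 difference was -1.19 (SE 0.20, edgeR adjusted p = 0.0132).

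Dock5 had 59.6, 56.5 and 50.7 CPM with T6-LOH, 34.9, 34.2 and 22.9 with T12-LOH and 47.3, 51.2 and 33.1 with T69A. T12-LOH and T6-LOH did not overlap. The log2 difference was -0.86 (SE 0.10, edgeR adjusted p = 0.00197). Ajuba had 36.0, 39.9 and 32.5 CPM with T6-LOH, 20.4, 26.2 and 29.3 with T12-LOH and 31.1, 31.7 and 26.1 with T69A. Again T12-LOH and T6-LOH did not overlap, though B4 differed little. The log2 difference was -0.49 (SE 0.14, edgeR adjusted p = 0.0479). Ankrd1 had 165, 143 and 104 CPM with T6-LOH and 45.1, 68.6 and 84.8 with T12-LOH, and its difference of -0.98 (SE 0.40) did not pass (adjusted p = 0.157).

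Dock5 remained called without any single library. Amotl2 was lost without the WT or A3 library of T6-LOH (0.0541 and 0.0686) or the A3 library of T12-LOH (0.0687). Ccn2 and Ajuba were lost without the WT, A3 or B4 library of T6-LOH, the WT or A3 library of T12-LOH or the WT or A3 library of T69A, with adjusted p of 0.0657 to 0.153 and 0.0554 to 0.189. Both were also lost with no filter on low counts (0.113 and 0.0568).

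**Figure D3:**
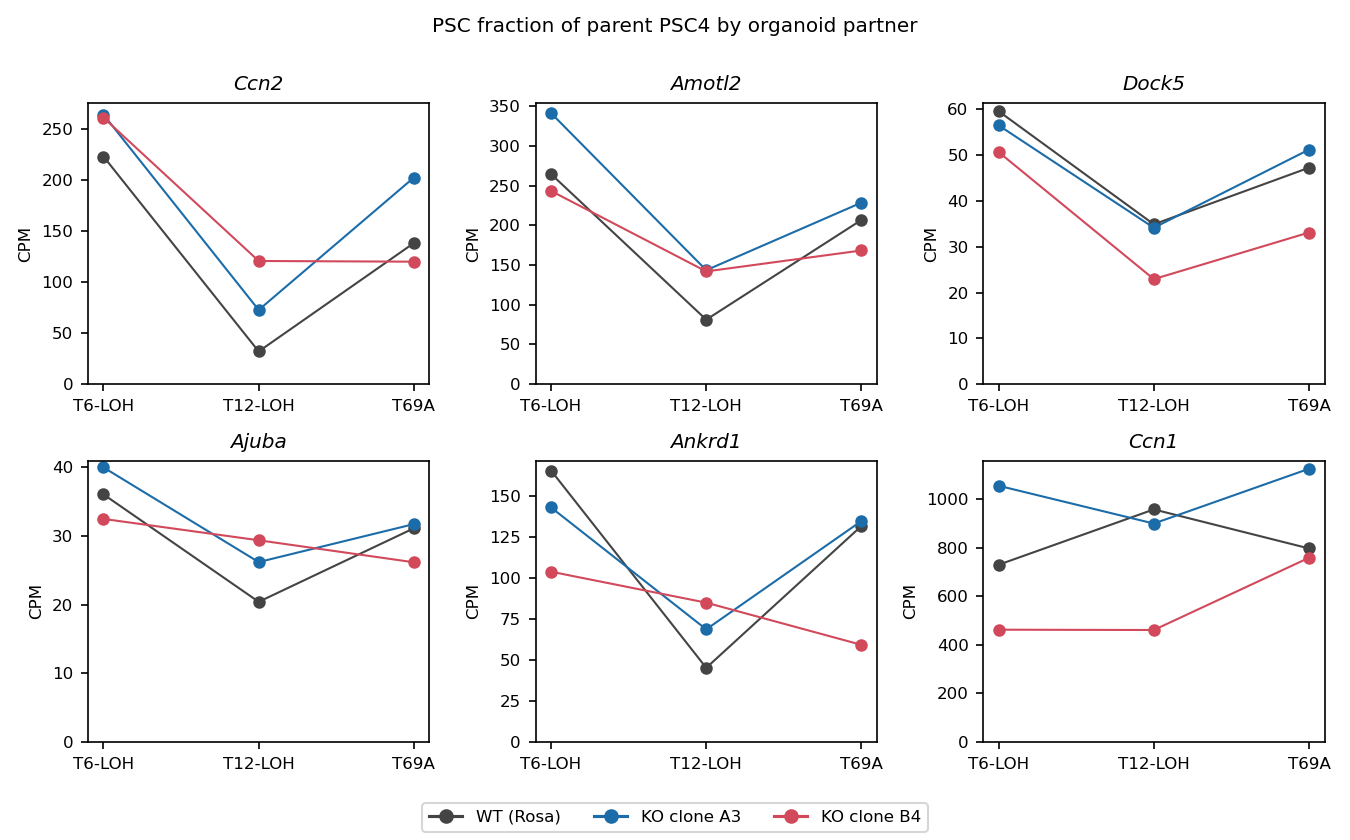
CPM in PSCs of parent PSC4 (WT, clones A3 and B4) by organoid partner, with 1 library per point and lines joining libraries of 1 PSC line. Ccn2, Amotl2, Dock5 and Ajuba are lower with T12-LOH than with T6-LOH in all 3 lines, as is Ankrd1. These libraries also entered the test that called Ccn2, Amotl2, Dock5 and Ajuba. Ccn1 is higher with T12-LOH in WT, lower in A3 and nearly level in B4.

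Of 14 further YAP and TEAD targets 8 were lower and 1 higher with T12-LOH, with a median of -0.52, among them Ccdc80 (-1.42, SE 0.09, edgeR adjusted p = 0.000241) and the RNA-binding protein gene Rbms3 (-1.08, SE 0.13, adjusted p = 0.0028). Of 29 Hippo genes 6 were lower and 2 higher, among them the protocadherin gene Fat1 (-0.84, adjusted p = 0.000402) and the kinase gene Taok2 (0.42, adjusted p = 0.00335). The 14 SRF and MRTF cytoskeletal targets had 11 lower and 0 higher, with a median of -1.09, such as Tpm1, tropomyosin (-1.06, SE 0.08, edgeR adjusted p = 0.000463), and Vcl, vinculin (-0.97, SE 0.10, adjusted p = 0.00156). The 14 TGF-beta targets had 8 lower and 0 higher, such as fibronectin, Fn1 (-1.57, adjusted p = 0.000373). Of 16 immediate-early genes 5 were higher and 1 lower, and Fosl1, an AP-1 subunit, was higher by 0.90 (adjusted p = 0.00106). Fibroblast markers moved too, with 10 of 18 lower and 3 higher. As above, these lists were chosen with earlier results of these data known, and their counts are descriptions only. Of 17 epithelial markers 1 was lower, Krt19. By the median of epithelial markers, organoid material made up 0.15 to 0.28% of the T12-LOH libraries and 0.156 to 0.225% of the T6-LOH libraries of PSC4.

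With T69A in place of T6-LOH none of the 10 was called, where 4.31% of 14093 genes were (2.85% higher, 1.45% lower), and 3607 genes had an unadjusted p under 0.05. DESeq2 called 1129 genes and 2 of the members, Dock5 and Amotl2. Dock5 came closest (-0.38, SE 0.10, edgeR adjusted p = 0.0672), then Amotl2 (-0.49, SE 0.20, adjusted p = 0.189) and Ccn2 (-0.71, SE 0.40, adjusted p = 0.33). Both partner comparisons share the T6-LOH libraries. By the same median, organoid material made up 0.55 to 0.691% of the T69A libraries of PSCs, and 8 of 17 epithelial markers were higher there. Between PSC parents, both grown with T6-LOH, 0 of 10 members passed, where 0.454% of 14107 genes did (0.234% higher, 0.22% lower) and 2392 had an unadjusted p under 0.05, and DESeq2 called 1050. In PSC5 against PSC4 Ccn1 differed by 0.50 (SE 0.42, edgeR adjusted p = 0.601) and Ccn2 differed by -0.57 (SE 0.34, adjusted p = 0.446).

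The organoid lines differed most in Axl and Ankrd1, both lowest in T6-LOH. The background was high, since 63.1% of 13939 genes differed between T12-LOH and T6-LOH (31.4% higher, 31.7% lower). Between T69A and T6-LOH 55.3% differed (27.6% higher, 27.7% lower), and between T69A and T12-LOH 56.6% (27.8% higher, 28.8% lower). All lines here were compared with PSC4 as partner.

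In T6-LOH organoids Axl had 15.1 (WT), 13.8 (A3) and 17.0 (B4) CPM, in T12-LOH 87.4, 83.0 and 69.7, and in T69A 52.8 (WT) and 37.6 (B4). The lines did not overlap. T12-LOH exceeded T6-LOH by 2.40 on the log2 scale (SE 0.18, edgeR adjusted p = 3.12e-06) and T69A exceeded T6-LOH by 1.53 (SE 0.20, adjusted p = 0.000169). T69A was below T12-LOH by -0.87 (SE 0.19, adjusted p = 0.00412), a call lost without its B4 library (0.0548). Ankrd1 had 64.4, 41.7 and 66.5 CPM in T6-LOH, 259, 235 and 267 in T12-LOH and 267 and 173 in T69A. T6-LOH lay below both other lines. The log2 differences from T6-LOH were 2.17 (SE 0.21, edgeR adjusted p = 5.01e-05) and 1.85 (SE 0.22, adjusted p = 0.000276), and T69A against T12-LOH was not called (-0.31, adjusted p = 0.278). In T6-LOH organoids grown with PSC5 Ankrd1 was 146 (WT), 84.6 (C5) and 104 (D4) CPM, above all 3 with PSC4.

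Lats2, a kinase that phosphorylates YAP, had 36.1, 34.0 and 35.3 CPM in T6-LOH, 69.8, 60.3 and 51.4 in T12-LOH and 35.2 and 30.2 in T69A. T12-LOH stood apart from both other lines. It exceeded T6-LOH by 0.79 (SE 0.08, edgeR adjusted p = 3.47e-06), and T69A was below it by -0.92 (SE 0.10, adjusted p = 5.81e-06). Amotl1 was highest in T12-LOH (0.43 above T6-LOH, SE 0.07, edgeR adjusted p = 0.000149) and lowest in T69A (-0.40 from T6-LOH, SE 0.08, adjusted p = 0.00104). Ajuba was lower in T12-LOH (-0.48, SE 0.07, adjusted p = 5.3e-05) and T69A (-0.46, SE 0.08, adjusted p = 0.000303) than in T6-LOH, at 157, 141 and 167 CPM in T6-LOH, 112, 110.1 and 109 in T12-LOH and 117 and 109.6 in T69A.

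Gadd45a was higher in T12-LOH than in T6-LOH (0.56, SE 0.16, edgeR adjusted p = 0.0105), a call lost without the WT library of T6-LOH with PSC4 (0.0602), and lower in T69A than in T12-LOH (-0.97, SE 0.19, adjusted p = 0.00122). Ccn2 was higher in T69A than in T6-LOH (0.35, SE 0.11, edgeR adjusted p = 0.0221), and this was lost without either T69A library (0.137 and 0.0705 for WT and B4) or the WT (0.096) or A3 (0.0617) library of T6-LOH. In all, 6 of 10 members were called between T12-LOH and T6-LOH, 5 between T69A and T6-LOH and 4 between T69A and T12-LOH. Ccn1, Amotl2 and Dock5 were called in none of the 3. Of the 4 genes lower in PSCs grown with T12-LOH, only Ajuba was also called lower in the T12-LOH organoids themselves. Ccn2 differed there by 0.25 (edgeR adjusted p = 0.0557), Amotl2 by -0.10 (adjusted p = 0.363) and Dock5 by 0.09 (adjusted p = 0.275), and the difference between fractions was not tested.

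**Figure D4:**
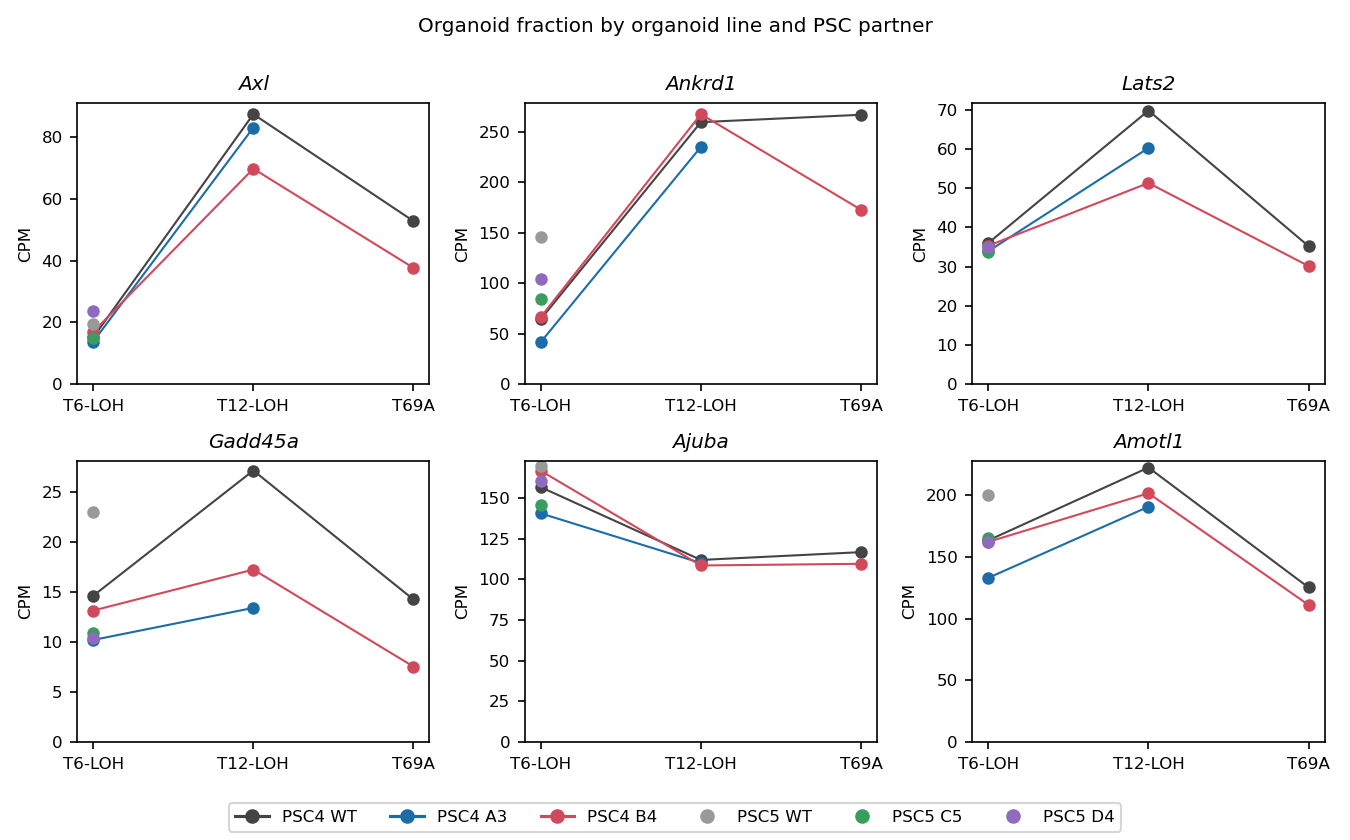
CPM in organoids by organoid line, coloured by the PSC line they were grown with, 1 library per point, lines joining libraries with 1 PSC4 line. Axl, Ankrd1 and Lats2 are higher in T12-LOH (69.7 to 87.4, 235 to 267 and 51.4 to 69.8 CPM) than in T6-LOH.

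Some members varied together in both fractions once each co-culture's mean was taken off log2(CPM + 0.5). These correlations over 12 PSC and 11 organoid libraries describe libraries that share their co-culture, and no difference between the fractions was tested. Differences between KO and WT and between clones were not taken off. The correlations therefore include the differences described above and are not separate from them. Amotl1 and Gadd45a had r = 0.93 in PSCs and 0.92 in organoids, Ccn2 and Amotl2 0.84 and 0.85, and Ankrd1 and Ajuba 0.84 and 0.91. Ccn2 had r = 0.59 in PSCs and 0.93 in organoids with Ankrd1, 0.27 and 0.92 with Gadd45a and 0.16 and 0.92 with Amotl1. Axl and Gadd45a had r = -0.89 in PSCs and 0.39 in organoids. Amotl1 had r = -0.82 in PSCs and 0.37 in organoids with Axl, and -0.80 and 0.43 with Lats2. Ccn1 and Ccn2 had r = -0.15 and 0.02. These pairs were picked from all pairs of members, and r over all pairs of genes was not computed. Of 9550 genes ranked in PSCs those most like Ccn2 were Actg1 (r = 0.895), Cox11 (0.890), Wdr12, Actg2 and Masp1 (each 0.889 or 0.888). Of 9412 ranked in organoids they were Znrf1 (r = 0.989), Marcksl1, Inhba (each 0.982), Pon2 and Il18r1 (each 0.980).

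Most members were read almost wholly from 1 transcript in both fractions. The exceptions, with at least 10% of a gene's reads on another transcript in a fraction, were Ankrd1, Axl and Amotl2. Ankrd1 reads were split over Ankrd1-205 (49.5% in PSCs, 42.2% in organoids), Ankrd1-201 (30.4 and 32.2%) and Ankrd1-203, annotated as a target of nonsense-mediated decay (14.5 and 18.5%). Axl reads fell on Axl-201 (86.2 and 88.3%) and Axl-202 (11.9 and 9.43%), and Amotl2 reads on Amotl2-201 (86.3 and 80.6%) and Amotl2-203 (10.0 and 13.2%). These shares are model estimates over transcripts that overlap, and no difference between fractions was tested.

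**Figure D5:**
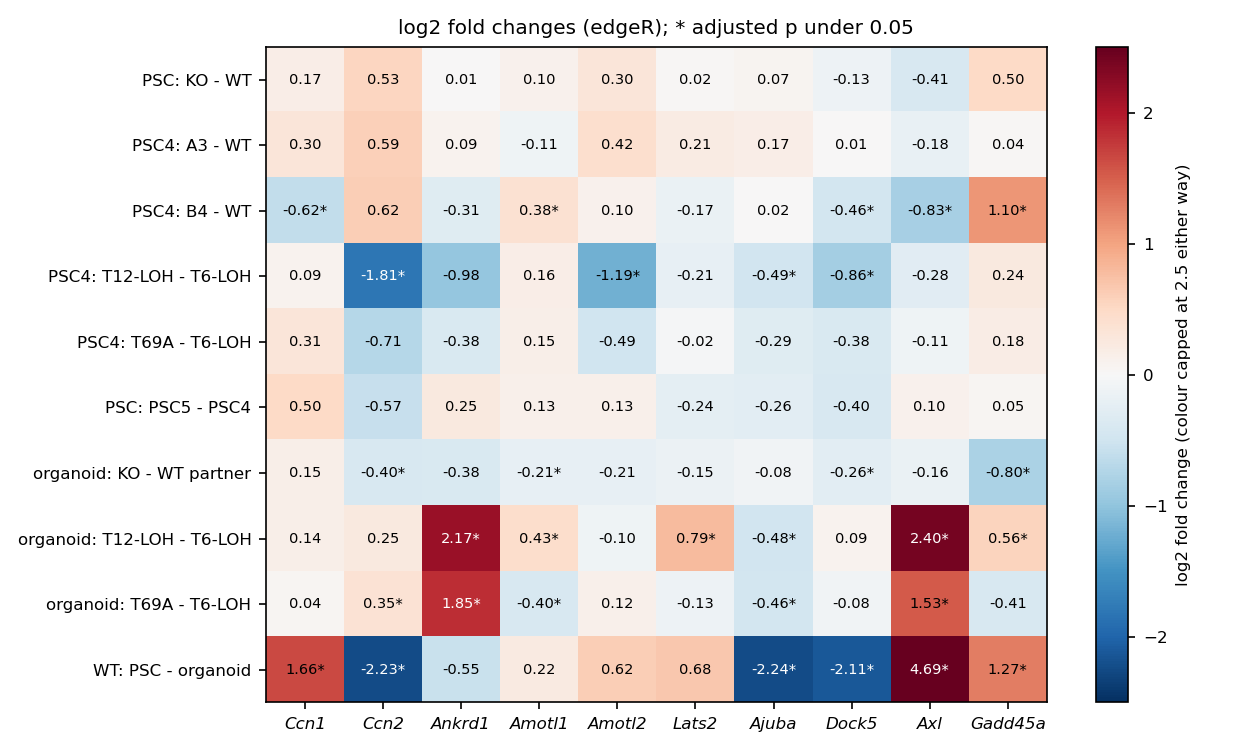
Log2 fold changes of the 10 genes (columns) in 10 comparisons (rows) from edgeR, written in each cell, with a star where the adjusted p is under 0.05 and colour capped at 2.5 either way. The row of organoids grown with KO PSCs holds 4 stars, all negative, the row of PSCs KO against WT none, and the row of PSC4 with T12-LOH 4, all negative.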

How the data were processed

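RNA was measured in 12 PSC and 11 organoid libraries. The deposited tables hold an estimated count (expected count) and a TPM per transcript, which the authors made, per the submitters' processing notes, with Salmon 1.9.0 and mouse build GRCm39. The sources used here give no library kit or strandedness, so reads of overlapping or antisense genes may be shared. Transcripts were matched by identifier to GENCODE names (115973 of 117135, 99.0%), and 0.364 to 0.443% of reads per library were unmatched and left out. Counts were summed over 35523 genes and rounded.

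Tests used edgeR 4.0.16 in R 4.3.3 (TMM, filterByExpr, robust quasi-likelihood), with p adjusted by Benjamini-Hochberg over all genes tested and a threshold of 0.05. Adjusted p-values in the text are from edgeR unless DESeq2 (1.42.0) is named. PSC and organoid fits had co-culture as a block, and PSC4 fits had PSC line and organoid line. The SE is the log2 fold change divided by the square root of F. The fits were also run on simulated counts, for the first comparison of each fit. Apart from the inserted changes, those counts had no differences between co-cultures or clones. They therefore cannot show how often the tests err on these data. Each library was counted once. Libraries of a group differed beyond sampling noise (chi-square per degree of freedom of at least 10.9). Every such pair also differed in PSC line or organoid line, so this cannot show whether the libraries were independent.

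The 10 genes and the other lists were chosen with earlier results of these data known. From each other list up to 4 genes with the smallest p in a comparison could be named, besides Egfr, defining markers and marker genes at 0 or at the highest mean of their list. Material of the other fraction was scaled by the median of its markers of at least 50 CPM. Alternatives were RLE scaling, no count filter, DESeq2, limma 3.58.1 with PSC line as a random effect, no block and leaving out libraries or co-cultures.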

Additional observations from a re-analysis of the deposited data

Results flagged for a closer look

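In 40 groups of 4 to 8 libraries, 3 held a library far from the others, where chance gives about 1 in 20. Ccn1 was at 205 CPM in the T6-LOH organoids grown with WT PSC4, against 253 to 263 CPM in the other 3 libraries with WT PSCs. Ajuba was at 39.9 CPM in clone A3 grown with T6-LOH, against 26.1 to 32.5 CPM in the other 7 KO libraries of PSCs. Lats2 was at 69.8 CPM in the T12-LOH organoids grown with WT PSCs, against 34.2 to 36.1 CPM in the other 3, and both T12-LOH libraries with KO PSCs were also high, at 60.3 and 51.4 CPM.

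The change from WT differed between the KO clones A3 and B4 of PSC4 for 6 members, by the edgeR test of B4 against A3. The differences on the log2 scale were 1.06 for Gadd45a, 0.49 for Amotl1, -0.38 for Lats2, -0.47 for Dock5, -0.65 for Axl and -0.92 for Ccn1. As 49% of all genes differed between these clones, the share among the members is near the background.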

How the results depend on the processing

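The labels give every library its own number, so no numbers pair libraries across groups. Co-culture was the block, which in WT cultures pairs the PSC and organoid libraries of 1 culture, and with all 11 cultures as blocks 10589 genes and 9 members were called between fractions, against 8078 and 6. The limits of these results are 1 WT library per co-culture, clones as the only KO lines, and no statement of separate cultures. The correlation of libraries that share a PSC line, beyond genotype and block, was 0.726 in PSCs and 0.0376 in organoids.

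For PSCs KO against WT, genes called numbered 23 with no count filter, 602 by DESeq2, 4 with no block, 0 without T69A, 38 without T6-LOH with PSC5, 0 with PSC line as a random effect and 0 to 51 without single libraries, against 9. Members called were 0 under each of these. Uncalled values changed sign for Ccn1 (-0.082 without T6-LOH with PSC5), Ankrd1 (-0.039 with no block, -0.081 without that co-culture), Ajuba (-0.0040) and Lats2 (-0.0063, both with the random effect). Without single libraries the values ran from -0.08 to 0.43 for Ccn1, -0.20 to 0.18 for Ankrd1, -0.034 to 0.134 for Ajuba and -0.035 to 0.102 for Lats2.

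For organoids, genes called numbered 0 with no block, 445 without T69A, 189 without T6-LOH with PSC5 and 214 to 1910 without single libraries, against 1441. Members called were 0, 1, 0 and 1 to 6, against 4. For the difference between fractions, genes called numbered 54 with no filter, 614 by DESeq2 and 15 to 345 without single libraries, against 84, and DESeq2 called 2 members. Without single libraries Ccn1 ran from -0.23 to 0.28 and Dock5 from -9.52e-05 to 0.19. In WT fractions Ankrd1 ran from -1.18 to 0.11.

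For clone A3, genes called ran from 161 to 1311, against 1044. For T12-LOH against T6-LOH partners, they ran from 902 to 2622, against 2506, and members from 1 to 5, with 2 members called with no filter, against 4. For T69A against T6-LOH partners, DESeq2 called 1129 genes and 2 members, and single libraries gave 1 to 856 genes, against 607, and 0 to 1 members. For PSC5 against PSC4, DESeq2 called 1050 genes and single libraries gave 4 to 101, against 64. The cause of these changes was not tested.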
